A study of Mus musculus with 12 samples.

Results

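The transcripts of 10 circadian clock genes were followed across 12 mice of a study of Sprouty2 in the intestine. The members are Arntl, Clock, Per1, Per2, Per3, Cry1, Cry2, Nr1d1, Nr1d2 and Dbp, taken by gene symbol from a table of 35241 gene symbols, and all 10 were measured above the limit used for testing, a mean of at least 0.5. RNA of full-thickness distal colon was sequenced from 6 Spry2IEKO mice (Vil1::Cre;Spry2-f/f) and 6 Spry2FF littermates (Spry2-f/f without Cre). All 12 mice carry the floxed Spry2 alleles. Cre was driven by the villin promoter, so that the deletion is limited to the intestinal epithelium, while the measured tissue also holds muscle, stroma, nerves and blood vessels. Each of the litters A and B gave 3 Spry2FF and 3 Spry2IEKO mice. Of the Spry2FF mice 3 were male, and of the Spry2IEKO mice only replicate 8, of litter B, was (5 were female). The labels state an age of 6 weeks in the account of the animals and of 8 weeks in the account of the RNA. No label gives the time of day at which a colon was taken, and litter cannot be told apart from day, hour or handling of collection.

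The mammalian clock is a transcriptional feedback loop. The proteins of Arntl (BMAL1) and Clock form a heterodimer that binds E-boxes and activates the Per and Cry genes, whose products return to the nucleus and repress that heterodimer. A second loop runs through Nr1d1 and Nr1d2 (REV-ERBα and REV-ERBβ), which repress Arntl through their own response elements. Dbp encodes a transcription factor of the PAR bZIP family that is driven directly by E-boxes and acts on D-boxes of other clock genes. In rodent tissues with a running clock, Arntl and Dbp peak at nearly opposite times of day, the Nr1d1 peak comes before that of the Per genes, and Cry1 comes late. The colon has such a clock in its epithelium, muscle and enteric neurons, set in part by feeding.

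Promoters with such elements are shown because the loop acts through them. RefSeq windows of 300 bases (GRCm38.p6, 250 bases before to 50 bases from the start site) were found for 9 of the 10 members, in 13 windows. Both strands were searched for the E-box CACGTG (in 7.15% of all 32851 promoter windows), the E-box variant CACGTT (4.68%), the D-box TTATGNAA (3.38%) and the REV-ERB element TAGGTCA (2.61%). An E-box stood in the windows of Per1 and Cry1, the variant in those of Cry1, Cry2 and Nr1d1, a D-box in those of Per1 and Per3, and TAGGTCA in that of Arntl. These were 6 of the 9 members, and the windows of Dbp, Nr1d2 and Clock held none of the 4 motifs. The motifs did not overlap one another. A match is a description of letters in a short window, and many known sites lie outside such windows. The 5 windows below, of members with a match, are given 5′ to 3′ on the strand of the gene, with the matched letters in capitals. The Per1 window (chr11:69098699-69098998, plus strand) has its E-box 166 bases and its D-box 24 bases before the start site. The Cry1 window (chr10:85185005-85185304, minus strand) has the variant on the other strand, printed here as AACGTG, 79 bases before the start site. Its E-box lies 60 bases before the start site. The Nr1d1 window (chr11:98775328-98775627, minus strand) has the variant 28 bases before the start site, again on the other strand. The Per3 window (chr4:151044616-151044915, minus strand) has D-boxes 205 and 158 bases before the start site. The Arntl window (chr7:113207261-113207560, plus strand) has its element 30 bases after the start site.
Per1: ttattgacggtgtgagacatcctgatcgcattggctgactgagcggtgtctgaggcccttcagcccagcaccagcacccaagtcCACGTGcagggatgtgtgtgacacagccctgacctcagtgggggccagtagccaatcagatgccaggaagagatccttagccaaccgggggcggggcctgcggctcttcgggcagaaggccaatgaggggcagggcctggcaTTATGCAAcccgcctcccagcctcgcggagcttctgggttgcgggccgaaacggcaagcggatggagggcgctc
Cry1: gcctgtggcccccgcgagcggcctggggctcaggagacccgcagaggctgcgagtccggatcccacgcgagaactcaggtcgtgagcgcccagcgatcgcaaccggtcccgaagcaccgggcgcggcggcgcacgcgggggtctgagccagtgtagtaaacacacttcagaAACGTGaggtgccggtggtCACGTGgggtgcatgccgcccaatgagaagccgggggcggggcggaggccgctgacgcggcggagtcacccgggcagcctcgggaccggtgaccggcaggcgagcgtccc
Nr1d1: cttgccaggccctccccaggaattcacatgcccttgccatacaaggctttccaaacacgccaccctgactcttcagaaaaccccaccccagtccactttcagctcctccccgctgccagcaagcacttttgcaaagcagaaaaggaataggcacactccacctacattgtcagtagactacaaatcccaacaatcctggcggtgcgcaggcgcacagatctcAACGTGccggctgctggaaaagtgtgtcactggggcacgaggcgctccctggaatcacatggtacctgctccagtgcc
Per3: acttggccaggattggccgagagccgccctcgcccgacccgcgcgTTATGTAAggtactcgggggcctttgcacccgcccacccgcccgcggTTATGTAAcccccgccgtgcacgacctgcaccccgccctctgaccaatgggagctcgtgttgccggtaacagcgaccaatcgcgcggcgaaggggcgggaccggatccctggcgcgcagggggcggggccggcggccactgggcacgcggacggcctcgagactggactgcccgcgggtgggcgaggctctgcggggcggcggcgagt
Arntl: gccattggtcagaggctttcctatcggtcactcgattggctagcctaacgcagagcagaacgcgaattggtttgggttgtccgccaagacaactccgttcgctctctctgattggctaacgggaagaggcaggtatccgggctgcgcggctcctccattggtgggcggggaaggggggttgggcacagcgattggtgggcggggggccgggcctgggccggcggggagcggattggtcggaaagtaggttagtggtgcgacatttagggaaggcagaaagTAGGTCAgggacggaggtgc

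Values are TPM (the share of transcripts, corrected for transcript length) that the authors scaled once more between mice, summed over the transcripts of a gene, and are called normalized TPM here. Levels of different genes can therefore be compared. The 12 mice summed to between 918816 and 1069158, with 18655 to 19753 gene symbols above 0. Spry2 itself was at 20.04 ± 1.59 (SD, n = 6) in Spry2IEKO and 27.7 ± 3.29 (SD, n = 6) in Spry2FF mice, with every Spry2IEKO mouse (18.5 to 22.5) below every Spry2FF mouse (22.8 to 32.3). Markers of epithelium, smooth muscle and the distal gut were above 0 in all 12 mice. The 6 epithelial markers summed to 3352 to 4115 in Spry2IEKO and 4112 to 4774 in Spry2FF mice. The 6 smooth muscle markers summed to 3226 to 7887, highest in Spry2IEKO replicate 8. Of the 5 fat markers, which summed to 20.1 to 72.9 in the other mice, Spry2IEKO replicate 4 had 366 and replicate 5 had 761, both in litter A, and in 4 mice Adipoq was at 0. The 4 B cell markers summed to 270 in Spry2IEKO replicate 4 and to 0.789 to 110 elsewhere. In RNA of a whole tissue, fewer cells of a type and less RNA per cell cannot be told apart.

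Dbp, Nr1d1 and Nr1d2 were the most abundant members, and of the core activators Clock was intermediate and Arntl among the lower ones. Dbp (chr7:45705088-45710203, plus strand) averaged 129 normalized TPM and ranged from 99.7 to 162 over the 12 mice. Nr1d1 (chr11:98767932-98775333, minus strand) averaged 103, with a range of 69.8 to 151, and Nr1d2 (chr14:18204054-18239127, minus strand) averaged 77.3, with a range of 60.3 to 101. The ranges of these 3 genes overlapped one another, and all lay above those of the other 7. Per3 (chr4:151003652-151044665, minus strand) ranged from 21.5 to 53.1 around a mean of 28.6, and Clock (chr5:76209868-76304792, minus strand) from 20.7 to 34.5 around a median of 24.4. Per2 (chr1:91415982-91459324, minus strand) averaged 18.4, Per1 (chr11:69095217-69109960, plus strand) 17.8 and Cry2 (chr2:92403646-92434043, minus strand) 17.4, levels within one another's spread. Arntl (chr7:113207465-113314126, plus strand) averaged 11.7 and Cry1 (chr10:85131700-85185064, minus strand) was lowest at 6.31. Gene positions are those of GENCODE M21 on GRCm38.

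**Figure D1:**
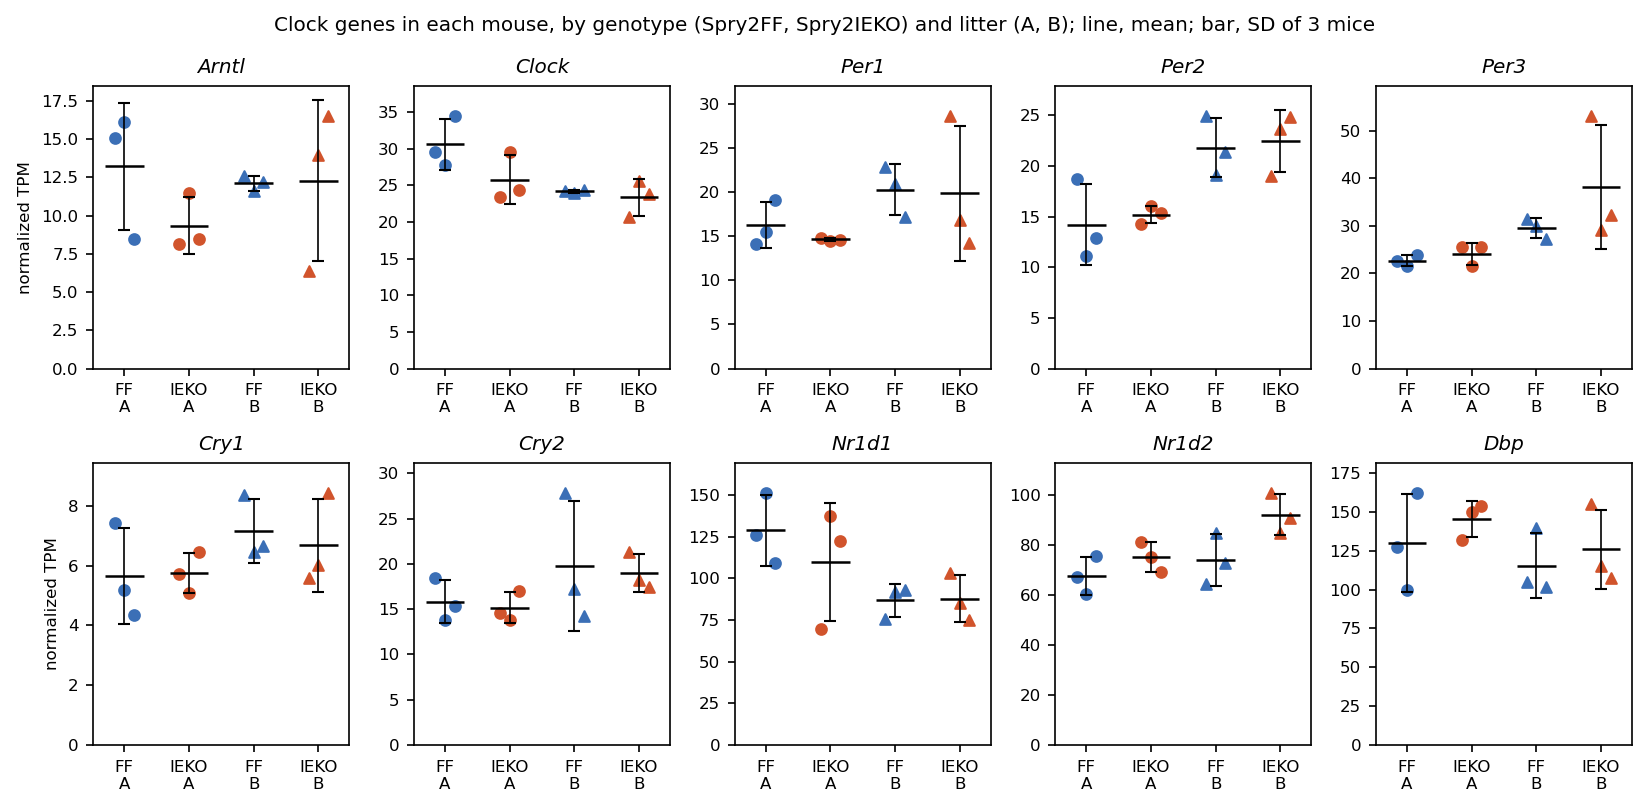
Normalized TPM of each of the 10 clock genes in each mouse, by genotype and litter, with circles for litter A, triangles for litter B, the mean as a line and the SD of 3 mice as a bar. Per2 and Per3 are the panels in which all 6 litter B mice lie above all 6 litter A mice, and the single high point of Per1 and Per3 is Spry2IEKO replicate 8.

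The spread among mice differed by gene. Clock, whose transcript is nearly constant over the day in most tissues, had a coefficient of variation of 14.3% over the 12 mice, and Nr1d2 one of 15.2%. Dbp varied by 17.8%, Cry1 by 20.2% and Cry2 by 22.9%. Arntl varied by 28.4%, Per3 by 29.8%, Nr1d1 by 25.5% and both Per1 and Per2 by about 25% (25.0% and 25.2%). Arntl reached 16.5 in Spry2IEKO replicate 12 and was lowest at 6.37 in Spry2IEKO replicate 8, which are littermates of the same genotype. Its 3 Spry2FF mice of litter B, in contrast, lay between 11.6 and 12.6.

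The first comparison asked whether the litters differed. Per2, a repressor of the loop, was higher in litter B, and the other members did not pass the test. Per2 had values of 11.1, 14.8 and 18.7 (lowest, median and highest) in litter A and of 19.0, 22.5 and 24.9 in litter B. No mouse of litter A reached the lowest mouse of litter B, but the highest of one and the lowest of the other, Spry2FF replicate 2 and Spry2IEKO replicate 8, were close. The difference was 0.58 ± 0.12 (SE) on the log2(normalized TPM + 0.5) scale, or 1.499-fold, with a limma adjusted p of 0.0214 over 15880 genes and a two-sided exact permutation p of 0.00216, the smallest that 6 mice against 6 allow. It was 0.63 in Spry2FF and 0.54 in Spry2IEKO mice taken alone. Without both mice rich in fat markers it was 0.61 with a limma adjusted p of 0.0665. The fat markers summed to 20.8 to 761 in litter A and 20.1 to 37.9 in litter B, and Hoxd13, a gene of distal gut position, was also higher in litter B, by 0.36 (limma adjusted p of 0.0242). The other 2 distal gut genes read, Hoxa13 and Hoxb13, were at 0.02 and -0.03. The part of the fat markers or of Hoxd13 in the Per2 difference was not tested.

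Per3, the third Period gene, which is dispensable for the core loop, also had litters that did not overlap. Its values were 21.5, 23.2 and 25.5 in litter A, against 27.3, 30.7 and 53.1 in litter B. The difference of 0.49 ± 0.14 (SE) had an exact permutation p of 0.00216 but a limma adjusted p of 0.0614. The highest litter B value was that of Spry2IEKO replicate 8, which also had the highest smooth muscle sum, and the part of muscle in it was not tested. Without that mouse the litter difference was smaller, 0.35, and its limma adjusted p was 0.0239.

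Of the 10 members, 1 passed an adjusted p of 0.05 between litters, beside 4.14% of all genes tested in either direction and 1.01% in the direction of litter B. The litters of 2 members, Per2 and Per3, did not overlap with litter B higher, where 0.781% of all genes did so, and those of no member with litter B lower, where 2.94% did. At an unadjusted limma p under 0.05 there were 5 members, Per2, Per3, Nr1d1, Clock and Per1, beside 21.3% of all genes. The median difference of the members was 0.23, that of all genes -0.05, and 7 members had a positive and 3 a negative difference. With other scalings the median of all genes moved to -0.12 (the same total in each mouse) and 0.01 (quantile normalization), and the 160 higher and 498 lower genes became 103 and 1280, and 208 and 242.

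The 8 remaining members had overlapping litters. Nr1d1 had the largest difference in the other direction, -0.42 ± 0.16 (SE), with values of 69.8, 124 and 151 in litter A against 75.2, 88.6 and 103 in litter B. Its limma adjusted p was 0.148. The lowest value belonged to Spry2IEKO replicate 4, the mouse with the highest B cell sum and the second highest fat sum, and the other 5 mice of litter A all lay above all of litter B. Without that mouse the difference was -0.56 and the limma adjusted p 0.0188. Nr1d2, the paralog of Nr1d1, had a difference of the opposite sign, 0.21. Clock was at -0.23 and Dbp at -0.19. Per1 was at 0.34, Cry2 at 0.29 and Cry1 at 0.26, and Arntl at 0.11, where the difference was -0.07 in Spry2FF and 0.29 in Spry2IEKO mice. Their limma adjusted p-values lay between 0.169 for Clock and 0.82 for Arntl.

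**Figure D2:**
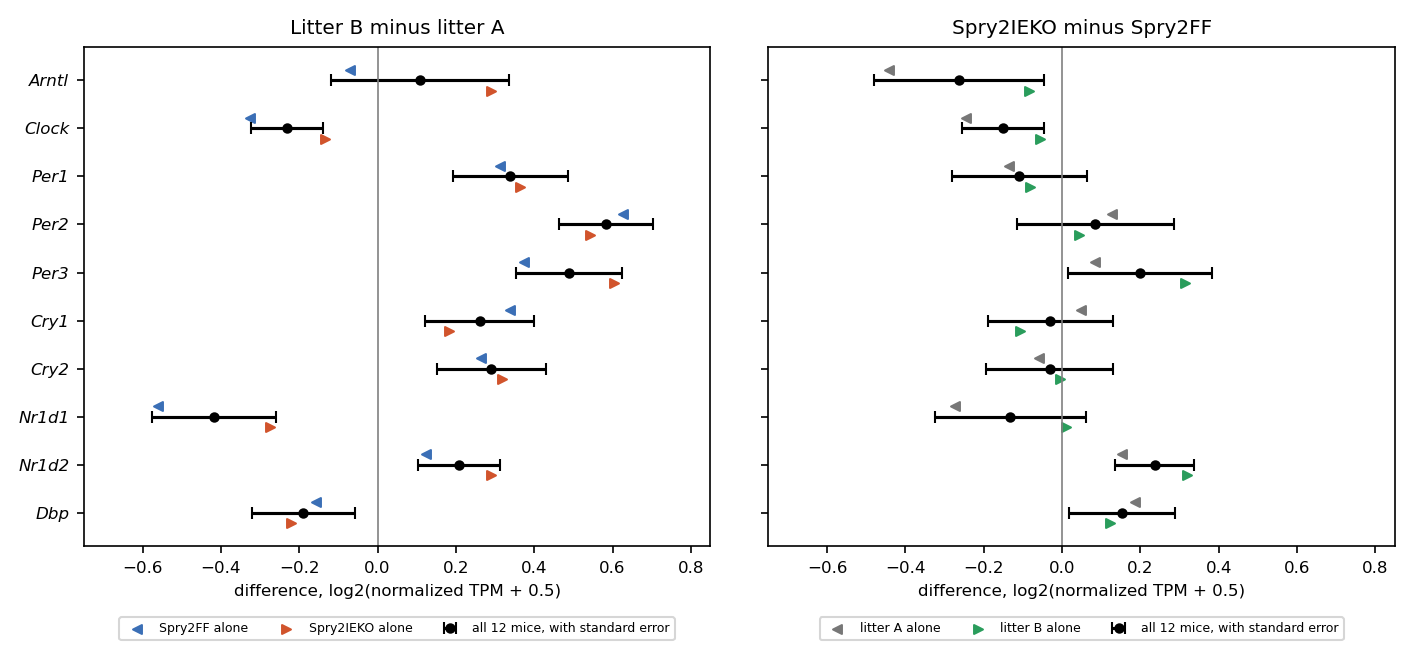
Difference of each clock gene on the log2(normalized TPM + 0.5) scale between litters (left) and between genotypes (right), as black points with the limma standard error, with the difference inside each genotype or each litter as triangles. Of the black points, Per2 at 0.58 is the farthest from 0 in either panel, and Nr1d1 at -0.42 the farthest below 0.

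Within a mouse, the level of a Per gene relative to Nr1d1 does not depend on the scaling between mice. These ratios were chosen after the values of the genes had been seen and are a description. The ratio of Per2 to Nr1d1 was 0.0731, 0.121 and 0.205 (lowest, median and highest) in litter A and 0.184, 0.254 and 0.330 in litter B. The overlap came from Spry2IEKO replicate 4 in litter A (0.205) and Spry2IEKO replicate 8 in litter B (0.184). The ratio of Per3 to Nr1d1 was 0.143, 0.194 and 0.365 in litter A and 0.292, 0.380 and 0.513 in litter B, again with replicate 4 as the highest of litter A. The ratio of Dbp to Arntl, by comparison, was 6.19, 14.7 and 19.1 in litter A and 6.53, 8.34 and 24.3 in litter B, so that its range within each litter was wider than the shift between their medians.

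**Figure D3:**
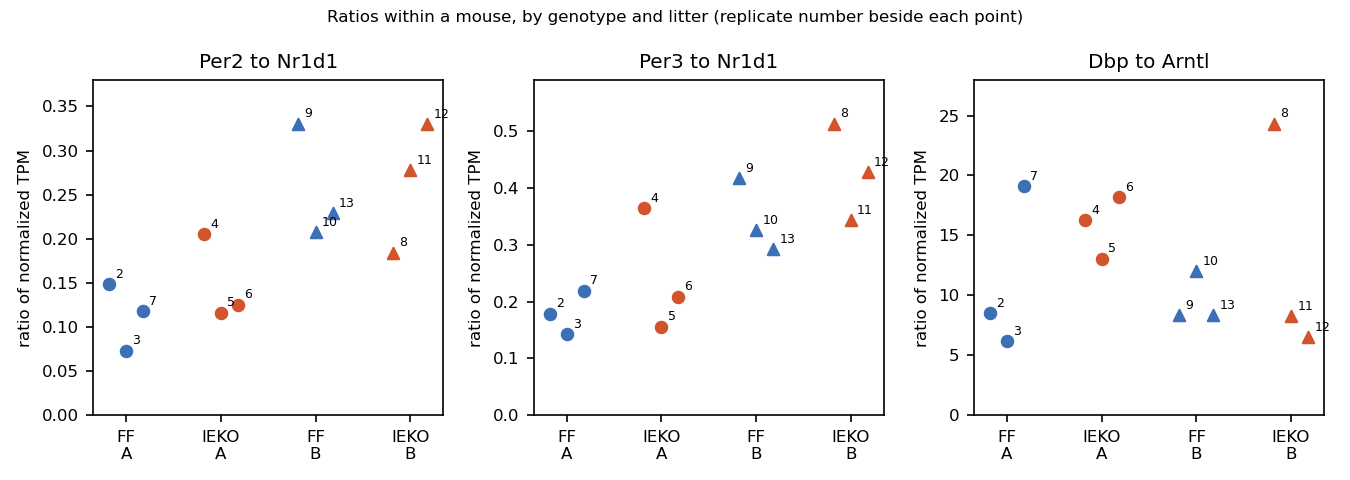
Ratio of normalized TPM of Per2 to Nr1d1, Per3 to Nr1d1 and Dbp to Arntl in each mouse, by genotype and litter, with the replicate number beside each point and axes from 0. In the left panel 5 of 6 litter B mice lie above all litter A mice, and in the right panel Spry2IEKO replicate 8 is highest at 24.3 and Spry2FF replicate 3 lowest at 6.19.

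The second comparison asked whether loss of epithelial Spry2 moved the clock genes. No member passed the test, beside 0.0315% of all genes (5 of 15880), and no member had genotypes that did not overlap, beside 0.189% of all genes with Spry2IEKO higher and 0.214% with Spry2IEKO lower. The median difference of the members was -0.03, that of all genes 0.01. At an unadjusted limma p under 0.05 there was 1 of 10 members, a share near the 6.18% of all genes. It was Nr1d2, with values of 69.4, 82.9 and 101 in Spry2IEKO and 60.3, 70.0 and 84.9 in Spry2FF mice. Its difference was 0.24 ± 0.10 (SE), 0.15 inside litter A and 0.32 inside litter B, with a limma adjusted p of 0.762 and an exact permutation p of 0.0541, or 0.035 when mice were exchanged only within litters. The 3 male Spry2FF mice had the lowest Nr1d2 values, 60.3, 64.5 and 67.3, and the male Spry2IEKO mouse, replicate 8, had the highest. Female Spry2FF mice were at 72.8, 75.6 and 84.9, and female Spry2IEKO mice at 69.4 to 90.8. With sex as a term no member had an unadjusted limma p under 0.05. The sum of the epithelial markers differed between the genotypes over the 12 mice, and its part in the Nr1d2 value was not tested.

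Arntl was at 6.37, 9.96 and 16.5 in Spry2IEKO and at 8.48, 12.4 and 16.1 in Spry2FF mice, a difference of -0.26 ± 0.22 (SE). It was -0.44 in litter A, where 2 of the 3 Spry2FF mice were male and no Spry2IEKO mouse was, and -0.08 in litter B. Among females alone it was 0.08. Per3 was at 0.20, Dbp at 0.15, Per2 at 0.09, Cry1 and Cry2 both at -0.03, Per1 at -0.11, Nr1d1 at -0.13 and Clock at -0.15. Among females alone the values of Per3 (-0.02) and Dbp (-0.02) were close to 0. For the genotype by litter interaction the limma adjusted p of every member was 0.998, no member had an unadjusted p under 0.05, beside 4.19% of all genes, and none was called, beside 0.0126%.

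The third question was how the members moved together from mouse to mouse. The most negative relation with Arntl over the 12 mice was that of Dbp. The 3 mice with the lowest Dbp, at 99.7, 102 and 105, had Arntl at 16.1, 12.2 and 12.6, and the 3 with the highest Dbp, at 162, 155 and 154, had Arntl at 8.48, 6.37 and 8.45. Over the 12 mice Pearson's r of the log2 values was -0.75 (permutation p = 0.00617, adjusted over 9 relations 0.0555), and Spearman's rho was -0.76 (permutation p = 0.00547, adjusted 0.0492). Within litter A r was -0.75 (exact permutation p = 0.075, adjusted 0.184), and within litter B -0.78 (exact permutation p = 0.0486, adjusted 0.109). Spearman's rho was -0.60 in A (exact permutation p = 0.242) and -0.49 in B (exact permutation p = 0.356). Without the 2 mice farthest from the median of Arntl, Spry2IEKO replicates 8 and 4, r was -0.78. Without replicate 8 alone it was -0.72, and -0.66 after subtraction of litter means (adjusted permutation p = 0.129 and 0.439). With the same total in each mouse r was -0.61, with an adjusted permutation p of 0.235.

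Per3 and Per1 also tended to be low where Arntl was high, and much of this rested on 1 mouse. Since the litters of Per3 did not overlap, r was taken within litters, with values of -0.83 (A) and -0.84 (B). After subtraction of litter means it was -0.76 (permutation p within litters 0.0147, adjusted 0.0461). Without Spry2IEKO replicate 8, which had the lowest Arntl and the highest Per3, it was -0.49, and without both mice farthest from the median of Arntl it was -0.38. Spearman's rho in litter B was -0.14. For Per1, r was -0.48 over the 12 mice (permutation p = 0.108, adjusted 0.354), with a rho of -0.38, and -0.68 after subtraction of litter means (adjusted permutation p = 0.0461). Without replicate 8 it was -0.12 over the mice and -0.42 after subtraction of litter means (adjusted permutation p = 0.454).

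The remaining relations with Arntl did not pass over all 12 mice or within a litter. For Nr1d2 r was -0.40, with -0.79 inside litter A and -0.41 inside litter B. Without the 2 mice farthest from the median of Arntl this value was 0.02. Cry1 was at 0.47, with 0.27 and 0.68, and Clock at 0.25, with 0.24 and 0.87. Per2, taken within litters, was at 0.0071 (A) and 0.75 (B). Cry2 was at -0.06 over the 12 mice. Nr1d1 changed sign between the litters. Its r was 0.69 in A (exact permutation p = 0.0819, adjusted 0.184), -0.81 in B (exact permutation p = 0.0194, adjusted 0.0583) and 0.07 over the 12 mice. The difference between the litters was not tested.

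**Figure D4:**
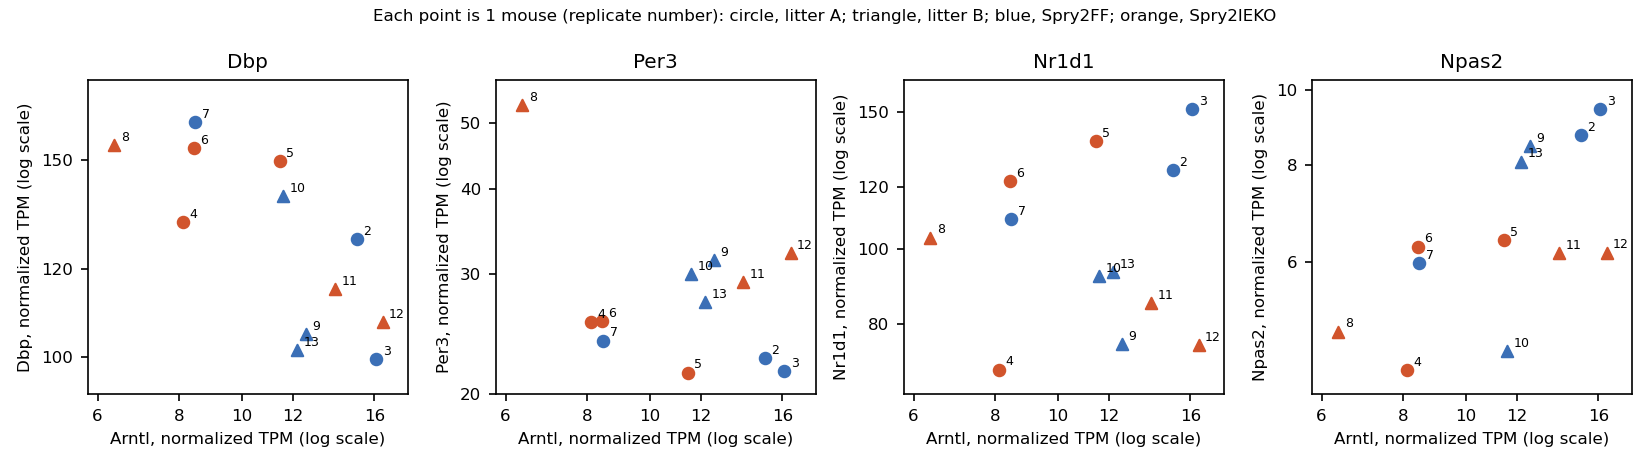
Each mouse's Arntl level against that of Dbp, Per3, Nr1d1 and Npas2, in normalized TPM on log axes, with circles for litter A, triangles for litter B, blue for Spry2FF, orange for Spry2IEKO and the replicate number beside each point. Mice with more Arntl had less Dbp in both litters (r of -0.75 and -0.78), while the slope for Nr1d1 was positive in litter A (0.69) and negative in litter B (-0.81).

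Among all 45 pairs of members, given as a description, 20 had a positive r after subtraction of litter means and 27 had the same sign in both litters, 14 positive and 13 negative. Per2 and Cry1, both repressors of the loop, ran together, with r of 0.71 (A) and 0.75 (B). Nr1d2 and Dbp, both direct targets of the Arntl and Clock heterodimer, had 0.69 and 0.72. Nr1d1 and Nr1d2, in contrast, had -0.77 (A) and 0.48 (B), and Nr1d1 and Dbp had -0.25 and 0.71. In litter B Nr1d1 stood opposite to Per2 (-0.92) and Cry1 (-0.89), and in litter A the values were -0.06 and 0.0034. In litter B, Spry2IEKO replicate 8 had the lowest Arntl, Clock, Cry1 and Per2 and the highest Per1, Per3, Nr1d1, Nr1d2 and Dbp. By rank, which gives that mouse less weight, the relations with Arntl in litter B were 0.37 for Clock, -0.14 for Per3, -0.26 for Nr1d2 and -0.49 for Dbp, and 0.83 for Per2 and -0.83 for Per1. All pairs share the same 12 libraries and their scaling.

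**Figure D5:**
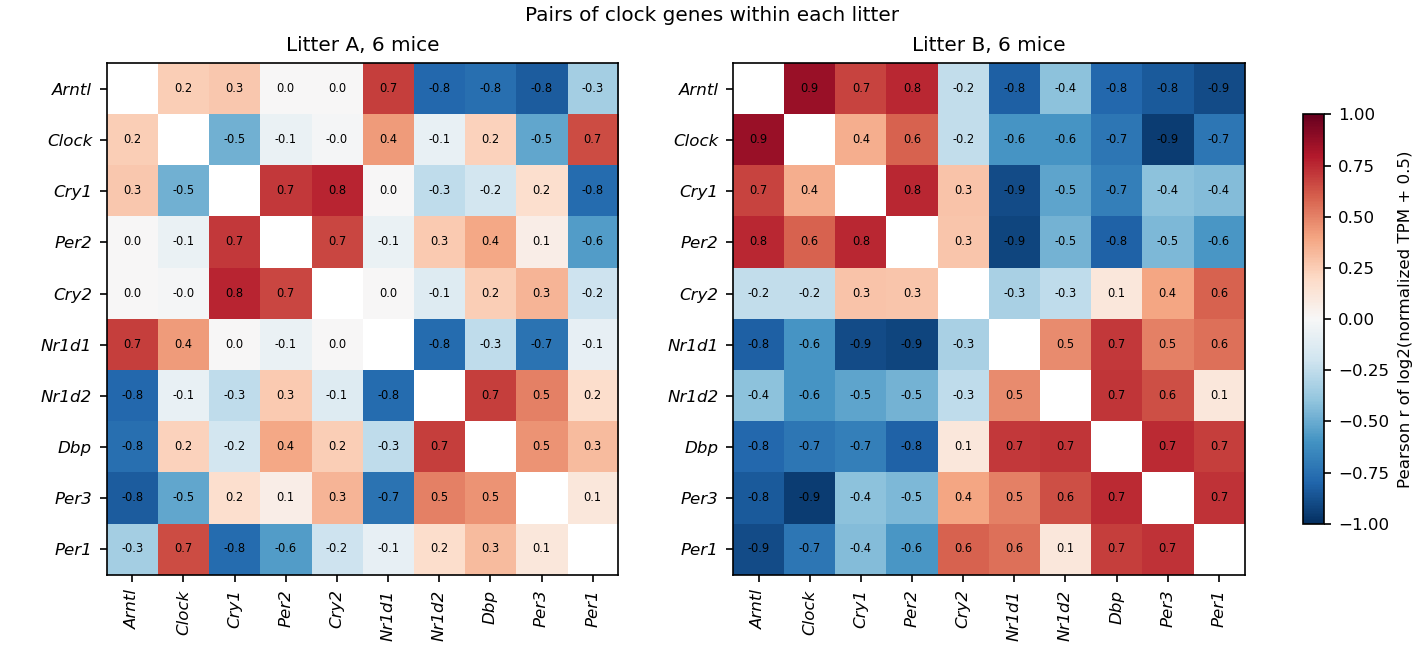
Pearson's r of log2(normalized TPM + 0.5) for every pair of the 10 clock genes over the 6 mice of litter A (left) and of litter B (right), red for positive and blue for negative, with r rounded to 1 decimal in each square. Litter B shows a block of Arntl, Clock, Cry1 and Per2 opposite to Nr1d1, Nr1d2, Dbp, Per3 and Per1, with Spry2IEKO replicate 8 the lowest or highest mouse of that litter for each of these 9 genes, while in litter A Nr1d1 and Arntl share a sign (0.69).

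Of 23 other clock genes and clock outputs, 21 were tested between litters. Differences that did not pass the test included Timeless at 0.48, Bhlhe41 at -0.36, Fbxw11 at -0.28 and Usp2 at 0.26 (limma adjusted p of 0.193, 0.434, 0.0623 and 0.245). The median of the 21 was 0.05. Between genotypes none of the 21 was called, with 1 at an unadjusted limma p under 0.05, beside the 6.18% of all genes. It was Csnk1d, the clock kinase, at -0.26 (limma adjusted p of 0.733).

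Among those with a mean of at least 2, Npas2, a paralog of Clock that also pairs with the Arntl protein, had the highest r with Arntl after subtraction of litter means, 0.68 (0.91 in A and 0.44 in B), and Tef, a PAR bZIP factor like Dbp, had the lowest, -0.72 (-0.73 and -0.80). Hlf, the other gene of that family, was at -0.64 (-0.33 and -0.83). Tef was abundant, at 100 to 181, and Hlf scarce, at 1.74 to 7.40. Of 12871 genes with a mean of at least 2, members left out, the 5 most like Arntl were Lrrc1 (0.94), Rhod (0.94), Ppp1r14d (0.91), Pdp2 (0.91) and Litaf (0.90), and the 5 most opposite were Fbxo6 (-0.95), Gm38699 (-0.93), Tmem144 (-0.92), Zfp385b (-0.92) and Wbp2 (-0.90), where Npas2 ranked 382 from the top and Tef 205 from the bottom. With 12 mice and so many genes, values of this size at the ends of the list carry no test.

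Peripheral clocks are reset by glucocorticoids, feeding and body temperature. Of these cues, 15 genes that respond to glucocorticoids or temperature were read beside the members. Rbm3, which encodes an RNA-binding protein induced by cooling, was called between litters, at 238, 289 and 327 in litter A and at 318, 377 and 458 in B, with a difference of 0.43 ± 0.10 (SE) and a limma adjusted p of 0.0369. The metallothioneins Mt2 and Mt1, which respond to glucocorticoids and metals, were at 0.91 and 0.54, and the glucocorticoid-induced kinase Sgk1 at 0.96, with limma adjusted p-values of 0.114, 0.0546 and 0.11. The glucocorticoid targets Zbtb16 and Fkbp5 had values of the opposite sign, -0.51 and -0.45 (limma adjusted p of 0.203 and 0.263). Between genotypes none of the 15 was called by limma, with 2 at an unadjusted p under 0.05, Fkbp5 and Sgk1 (-0.84), beside the 6.18% of all genes. Fkbp5, a co-chaperone of the glucocorticoid receptor, had genotypes that did not overlap, where 0.214% of all genes did so with Spry2IEKO lower. It was at 21.3, 31.5 and 42.2 in Spry2IEKO and 43.7, 46.9 and 58.7 in Spry2FF mice. The difference was -0.69 ± 0.17 (SE), with a limma adjusted p of 0.435. The sum of the epithelial markers also differed between the genotypes, and its part in the Fkbp5 value was not tested.

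The make-up of each sum bears on how firmly a member can be read. Per2 came wholly from 1 coding transcript, Cry1 to 96.4%, Cry2 to 92.8% and Nr1d1 to 87.6%. For Dbp, retained-intron transcripts made up 24.9% and 12.6% of the sum, for Nr1d2 19.2% and 7.59%, and for Per3 a transcript annotated as processed made up 49.9% beside 40.3% for the coding one. The share of the second coding transcript of Arntl ran from 0.121% to 58.9% between mice, and that of the main Per1 transcript from 13.03% to 75.2%, so that single isoforms of these 2 genes were not compared. Nr1d1 shares 263 exon bases with Thra and Dbp 539 with Sphk2, both on the opposite strand, with Thra at a mean of 34.1 and Sphk2 at 18.6. Whether the pseudoalignment used strand is not given in the sources used here, and without it reads of such stretches cannot be assigned to a strand.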

How the data were processed

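Distal colon RNA of 12 mice was sequenced, with groups taken from the labels, where each mouse is a sample of its own. The labels describe a stranded mRNA kit and paired-end reads, the study's methods single-ended reads. The submitters' processing notes name CASAVA, kallisto, sleuth and mm10. The deposited signal is TPM per transcript, scaled once more between mice by the authors. Another 11 deposited columns hold the authors' own comparison and were not used. Of 113974 entries, 781 repeats of a transcript were dropped (none of a member), 26 gene names turned into dates were restored, and values were summed per symbol. The values carry no read depth, so no counting error is given.

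The limma test (limma 3.58.1, R 4.3.3, lmFit, then eBayes with a trend, two-sided) ran on log2(value + 0.5) over 15880 genes whose mean reached 0.5, with Benjamini-Hochberg adjustment over all of them, and the pseudocount understates changes of low genes. The plan assumed TPM and was kept for the scaled signal. The script was tested on simulated data. Members were also compared by exact permutation (924 splits, or 400 within litters or genotypes). Correlations with Arntl were compared with 100000 permutations over 12 mice, or all 720 orders within a litter, and adjusted over 9 relations. NumPy 2.4.6, SciPy 1.17.1, pandas 2.3.3 and matplotlib 3.10.9 ran under Python 3.11.15.

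All 10 members are named, of 23 other clock genes the 4 with the largest difference among those not called between litters (a result on another of them is not reported here), of 15 cue genes likewise up to 5, and the 5 genes most and least like Arntl. Csnk1d, Npas2, Tef, Hlf, Fkbp5, Hoxd13 and the Per to Nr1d1 ratios were chosen after their values were seen. Members and lists were chosen with earlier results of these data known. Alternatives covered the pseudocount, the filter, the scaling, sex, litter and genotype as a term or subset, repeated entries and each mouse left out. The one without both mice rich in fat markers was chosen after seeing the data.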

Additional observations from a re-analysis of the deposited data

Results flagged for a closer look

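In each of 40 groups of 6 mice (10 genes in each genotype and each litter), the highest and lowest mouse were compared with the rest by Dixon's gap, and 6 stood apart. Chance gives about 1 in 20 groups, and the groups share mice. Spry2IEKO replicate 8, the male of its group, accounts for 4 of them. Its Per3 value of 53.1 stood above the 21.5 to 32.2 of the other Spry2IEKO mice and above the 27.3 to 32.2 of the other litter B mice. Its Per1 value of 28.6 stood above the 14.2 to 16.8 of the other Spry2IEKO mice, and its Clock value of 20.7 below the 23.9 to 25.6 of the other litter B mice. The same mouse had the lowest Arntl (6.37) and the highest smooth muscle sum (7887), and the part of muscle in these values was not tested. Per1 in Spry2FF replicate 7 was at 19.2, above the 14.2 to 15.5 of the other litter A mice. Cry2 in Spry2FF replicate 9 was at 27.8, above the 13.8 to 18.4 of the other Spry2FF mice.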

How the results depend on the processing

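The values carry no read depth, and with 6 mice against 6 small shifts of these genes cannot be told from the spread. Between genotypes no member was called under any alternative run. The 5 genes called in all became 1 without a filter, 2 with quantile normalization, 1 with sex as a term, 2 among females, 2 in litter A, 1 in litter B, 1 without both mice rich in fat markers, and 1 to 11 with each mouse left out. Between litters the 658 genes became 426 without a filter, 1383 with the same total in each mouse, 129 without both mice rich in fat markers, 1 each among females, Spry2FF or Spry2IEKO mice alone, and 272 to 685 with each mouse left out, falling by over 1.5 times except without replicates 4, 8 or 10. The single member called became 2 with quantile normalization (Per3 added, adjusted p 0.0496 in limma), 0 among females, Spry2FF or Spry2IEKO mice alone or without both mice rich in fat markers, and 1 to 2 with each mouse left out. Per2 stayed higher in litter B in each alternative, at 0.59 among females, 0.63 in Spry2FF, 0.54 in Spry2IEKO and 0.61 without the fat-rich mice (limma adjusted p of 0.0981, 0.282, 0.291 and 0.0665). These subsets hold fewer mice. The 2 interaction genes became 0 with a mean of at least 2 and 2 to 5 with each mouse left out, with no member.

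Signs turned for small values. The litter difference of Arntl was -0.0714 in Spry2FF mice. Among females the genotype difference was 0.0824 for Arntl, -0.0224 for Per3, -0.0171 for Dbp, 0.118 for Cry1 and 0.0514 for Cry2. With sex as a term it was 0.00407 for Cry1 and 0.0788 for Cry2. Cry1 was at 0.0472 in litter A and 0.0558 without the fat-rich mice, Cry2 at 0.0904 without them and Nr1d1 at 0.00953 in litter B. With each mouse left out, the genotype difference ran from -0.0401 to 0.187 for Per2, -0.127 to 0.0481 for Cry1 and -0.0975 to 0.103 for Cry2.

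For the relation with Arntl, Dbp passed as a rank correlation (-0.76), after subtraction of litter means (-0.77) and with quantile normalization (-0.79). Without subtraction it lay between -0.79 and -0.71 with each mouse left out. After subtraction it did not pass with the same total, with quantile normalization or without the 2 mice farthest from the median of Arntl (adjusted permutation p = 0.167, 0.0563 and 0.245). It also did not pass with replicate 2, 3, 8, 9, 10 or 11 left out, and was -0.66 without replicate 8. It passed with replicate 4, 5, 6, 7, 12 or 13 left out. Per3 no longer passed within litter A (-0.83) or B (-0.84), with the same total (-0.63), with quantile normalization (-0.73) or without the 2 mice farthest from the median of Arntl (-0.38), with -0.80 to -0.49 when each mouse was left out, all but the values within a litter with litter means subtracted. Per1 passed after subtraction of litter means (-0.68), but not when this was combined with the same total (-0.54) or with quantile normalization (-0.63). After subtraction it also did not pass without the 2 mice farthest from the median of Arntl (-0.51) or without replicate 8 (-0.42). The same held with replicate 2, 5, 9, 10, 11, 12 or 13 left out (-0.73 to -0.62). It passed with replicate 3, 4, 6 or 7 left out. Cry2 turned to 0.04895 by rank, 0.00671 in litter A, 0.0642 with quantile normalization and 0.0899 without the 2 farthest mice, Nr1d1 to -0.81 in litter B and -0.144 without them, Clock to -0.257 and Nr1d2 to 0.0225 without them. With each mouse left out the ranges were -0.0624 to 0.635 for Clock, -0.61 to -0.12 for Per1, 0.34 to 0.64 for Cry1, -0.22 to 0.19 for Cry2, -0.16 to 0.24 for Nr1d1 and -0.64 to -0.09 for Nr1d2, and with litter means subtracted 0.14 to 0.80 for Per2. With litter means subtracted, Per2 passed without Spry2FF replicate 3 (0.80, adjusted permutation p = 0.00765). Clock passed likewise without Spry2FF replicate 7 (0.82, adjusted permutation p = 0.0458). The cause of these changes was not tested.

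No paired analysis was possible because the genotypes share no replicate numbers that would match single mice. With litter as a term in place of such a block, 6 genes and no member were called between genotypes by limma.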
